A study of Mus musculus with 24 samples.

Results

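The clustered histone genes were followed here through the mouse corpus callosum, the white matter tract joining the cerebral hemispheres, in a cuprizone model of demyelination. The members were the protein-coding genes whose older mouse symbols place them in the histone clusters Hist1 to Hist4, such as Hist1h1c and Hist2h3c2. They were chosen by name and biotype, and 67 of the 54446 gene identifiers in the deposited table met the rule. Another 3 identifiers with such names were not protein-coding and were left out. The levels of these genes in the same libraries were known when the family was taken up, so the counts below describe the family and lend it no independent support.

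Bulk RNA sequencing of polyA RNA gave 24 libraries in 4 groups. Naive mice received vehicle (n = 4) or an inhibitor of Bruton's tyrosine kinase (BTKi, n = 4). Mice given cuprizone, a copper chelator that kills mature oligodendrocytes when fed, received vehicle (n = 8) or the BTKi (n = 8), the inhibitor being given after disease was induced. The labels give no strain, age or genotype of the mice, no name or dose of the inhibitor, and no length of either treatment. The labels do not say whether each library is from a separate animal, so p-values measure the spread between these libraries, which may be technical in part.

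Histones package DNA into nucleosomes: H2A, H2B, H3 and H4 form the core, and H1 binds the linker DNA between cores. Most clustered histone genes are replication-dependent. Their mRNAs are made in S phase and end in a conserved stem-loop, bound by the stem-loop binding protein Slbp, where other mRNAs carry a poly(A) tail. Some of them also give polyadenylated transcripts, which have been described in cells that have left the cell cycle. Libraries made from polyA RNA favour that form, so a level below need not stand for the whole output of a gene. The part of each form in a level was not measured. Replacement histones such as H3f3b lie outside the clusters and are made throughout the cell cycle as ordinary polyadenylated mRNAs.

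The stem-loop is shown first, because it marks the end of the tailless form of the mRNA. The consensus of the histone mRNA stem-loop, 16 bases of which 6 are free, was searched in the sense strand of every GENCODE M21 transcript, and 46 of the 67 members held it. Among other protein-coding genes 118 of 21884 did (0.539%), against 0.462% for the same consensus on the opposite strand. The commonest spelling, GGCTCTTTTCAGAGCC, stood in 25 members, and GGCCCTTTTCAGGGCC in 7. The windows below are from members whose levels are described later, with the 16-base motif in capitals. 
Hist1h1c: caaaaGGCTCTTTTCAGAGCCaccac
Hist1h1e: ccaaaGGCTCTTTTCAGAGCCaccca
Hist1h2ac: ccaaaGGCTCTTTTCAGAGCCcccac
Hist1h2ap: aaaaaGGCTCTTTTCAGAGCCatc
Hist2h3c2: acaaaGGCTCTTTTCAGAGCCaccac
Hist1h4h: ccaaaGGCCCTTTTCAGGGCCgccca
Hist1h4i: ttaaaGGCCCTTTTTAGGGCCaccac
Hist2h4: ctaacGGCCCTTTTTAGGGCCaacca
The linker, H2A and H3 genes shown share 1 spelling of the motif, and the H4 genes have others that keep the pairing arms. In the longest annotated transcript the distance from the motif to the transcript's end differed widely. It was 3 bases in Hist1h2ap, so that model stops at the stem-loop, and 46 in Hist1h4h. It was 840 bases in Hist1h1c, 1153 in Hist1h1e and 2010 in Hist1h2ac, whose models run on well past it. A further 3 of the 16 members with a mean of at least 0.5 FPKM had no match, namely Hist1h2bc, Hist2h2be and Hist1h4k. A missing match says only that the consensus is not in the annotated transcript.

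FPKM, fragments per kilobase of transcript and per a fixed number of fragments sequenced, corrects for gene length and depth. It does not correct for the choice of polyA RNA or for fragments divided between genes of like sequence. Levels of different genes are set side by side below with that limit. Only 16 of the 67 members reached a mean of 0.5 FPKM over the 24 libraries, the limit for testing. The other 51 comprised 46 with a value above 0 in at least 1 library and 5 listed at 0 in all 24 (Hist1h2aa, Hist1h2an, Hist1h2ba, Hist1h2bf and Hist2h3c1). The 46 include Hist1h2ao, whose highest value was only 8.28e-21 FPKM and whose transcript shares 93.5% of its 50-base stretches with Hist1h2ap. The members nearest the limit were Hist1h4k (0.538) and Hist1h2ac (0.548) just inside it, and Hist1h2bg (0.498) and Hist1h3d (0.383) just outside. By class, the genes numbered 6 for H1, 18 for H2A, 18 for H2B, 12 for H3 and 13 for H4. By position, 54 lay in Hist1 on chromosome 13, 10 in Hist2 on chromosome 3, 2 in Hist3 on chromosome 11 and 1 in Hist4 on chromosome 6.

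**Figure D1:**
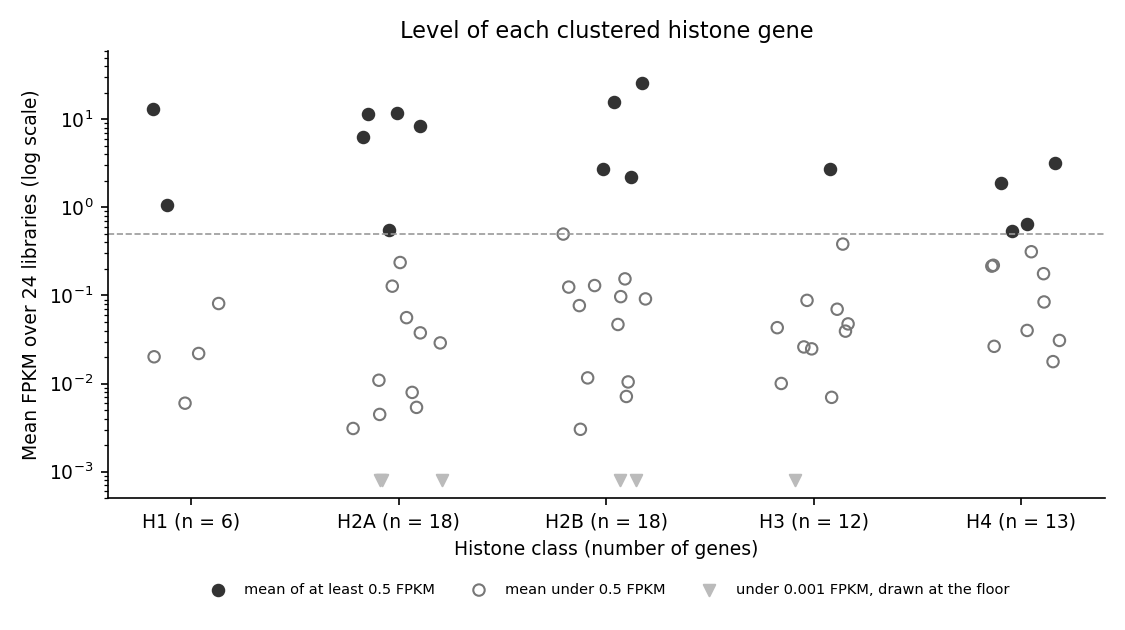
Mean FPKM over the 24 libraries (log axis) of each of the 67 genes, by histone class; filled points are the 16 genes with a mean of at least 0.5 FPKM (dashed line), open points those under it, and grey triangles genes under 0.001 FPKM. Levels spread widely within each class, and over the family from Hist1h2bc at 25.7 FPKM down to genes listed at 0.

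A few genes made up most of the family's signal. Hist1h2bc, which encodes an H2B, had the highest mean level at 25.7 FPKM. It was followed by Hist3h2ba (H2B, 15.8 FPKM), Hist1h1c (linker histone H1.2, 13.0 FPKM), Hist2h2aa2 (H2A, 11.9 FPKM) and Hist3h2a (H2A, 11.5 FPKM). Hist1h2ap (H2A) averaged 8.43 FPKM and Hist2h2aa1 (H2A) 6.30 FPKM. The highest H4 gene, Hist1h4h, averaged 3.18 FPKM and the highest H3 gene, Hist2h3c2, 2.71 FPKM. Among the H1 genes only Hist1h1c and Hist1h1e (linker histone H1.4, 1.05 FPKM) reached the limit. The summed level of all 67 members was 107 ± 9.89 FPKM in naive vehicle libraries (SD, n = 4) and 90.0 ± 7.47 in naive BTKi libraries (SD, n = 4). It was 120 ± 6.58 in cuprizone vehicle libraries (SD, n = 8) and 117 ± 11.0 in cuprizone BTKi libraries (SD, n = 8). The naive BTKi libraries were thus lowest, at 82.4 to 99.2 FPKM, and did not overlap with either cuprizone group, whose lowest libraries were at 113 and 106 FPKM. Naive vehicle libraries, at 98.2 to 118 FPKM, overlapped with all the other groups.

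Summed by class, the order of the groups was the same for H1, H2B, H3 and H4. H1 averaged 12.5 FPKM in naive vehicle, 9.29 in naive BTKi, 16.8 in cuprizone vehicle and 14.9 in cuprizone BTKi libraries. H4 averaged 5.90, 4.23, 8.62 and 8.39 FPKM in the same order of groups. H3 averaged 2.91, 2.34, 3.96 and 3.75 FPKM in that order. In these classes and in H2B naive BTKi was lowest and cuprizone vehicle highest. In H2A naive BTKi was also lowest, but cuprizone BTKi was highest, at 41.5 beside 40.6 FPKM in cuprizone vehicle. The H2A and H2B sums differed less in proportion, with group means from 32.6 to 41.5 FPKM for H2A and from 41.5 to 50.02 FPKM for H2B. The 51 members under the limit together gave 2.98 ± 0.227, 2.50 ± 0.442, 4.65 ± 0.692 and 3.89 ± 0.506 FPKM (SD, n = 4, 4, 8 and 8). These sums are descriptions, with no test.

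The depth of the libraries was read from the spacing of low values. The libraries held between 2.65e+07 and 3.10e+07 fragments, and 93.1% to 94.7% of low values in a library were whole numbers of fragments within 0.1, where 20% would be by chance. The 3 cuprizone vehicle libraries numbered 1, 4 and 7 stood apart in choroid plexus genes, which mark tissue next to the dissected tract. Each count below was also taken without them. In the cuprizone groups all 8 mature oligodendrocyte markers fell and 6 of 8 microglia markers rose, under vehicle and under BTKi (limma, adjusted p under 0.05). Summed oligodendrocyte markers ranged over 3456 to 4850 FPKM in naive vehicle, 2996 to 3062 in naive BTKi, 1094 to 1806 in cuprizone vehicle and 1230 to 2629 in cuprizone BTKi libraries. Summed microglia markers ranged over 125 to 153, 135 to 150, 193 to 490 and 213 to 380 FPKM in the same order. Striatal neuron markers fell in 8 of 8 under vehicle and passed in none under BTKi, with sums of 231 to 672, 219 to 364, 129 to 238 and 121 to 320 FPKM. Of 6 astrocyte markers 3 rose in both, with 1 falling under vehicle, and their sums were 410 to 468, 424 to 445, 565 to 746 and 629 to 748 FPKM. Choroid plexus markers passed in neither, with sums of 1166 to 1849, 475 to 2553, 31.1 to 1535 and 404 to 1271 FPKM. No marker of these lists was at 0 in all libraries. In bulk tissue a change in the number of cells of a type and a change in RNA per cell cannot be told apart, and the part of these shifts in cell content in the histone results was not tested.

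The first comparison asked what cuprizone changed without the inhibitor. Under vehicle, 3 of the 16 tested members rose and none fell, Hist1h1c, Hist1h4h and Hist1h2ac, so H1, H4 and H2A each had 1 gene that rose. That was 18.75% of the tested members, beside 15.0% of all 15216 genes tested that changed, 10.2% that rose and 4.82% that fell. The share is near the background. The differences were positive for 13 of the 16, beside 59.35% of all genes. The median log2 difference was 0.16 beside 0.03 over all genes. An unadjusted p under 0.05 was found for 6 members, beside 27.4% of all genes. No member's groups were free of overlap, where 8.77% of all genes were.

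Hist1h1c (ENSMUSG00000036181.2, chr13:23738808-23740367, plus strand, in GENCODE M21 on GRCm38) was at 11.8, 14.0, 8.52 and 10.9 FPKM in the 4 naive vehicle libraries. In the 8 cuprizone vehicle libraries its lowest, median and highest values were 13.4, 16.0 and 17.3 FPKM. The groups overlapped by a single naive library, number 2. The log2 difference of FPKM + 0.5 was 0.44 (SE 0.11, limma adjusted p = 0.00741), and without naive vehicle 3 the adjusted p was 0.0604. Hist1h4h (ENSMUSG00000060981.7, chr13:23531050-23531519, plus strand), an H4 gene, was at 2.56, 3.35, 1.73 and 1.48 FPKM in naive vehicle libraries. In cuprizone vehicle libraries its lowest, median and highest values were 2.77, 3.80 and 5.63 FPKM. Most cuprizone libraries lay above the naive ones, with naive vehicle 2 inside their range. The log2 difference was 0.63 (SE 0.19, limma adjusted p = 0.0223). Without naive vehicle 3 or 4 the adjusted p was 0.0870 or 0.125, and with no limit on low values it was 0.0568.

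Hist1h2ac (ENSMUSG00000069270.6, chr13:23681467-23683948, minus strand), an H2A gene, was at 0.459, 0.530, 0.460 and 0.278 FPKM in naive vehicle libraries. Its lowest, median and highest values in cuprizone vehicle libraries were 0.476, 0.638 and 0.847 FPKM. A single cuprizone library lay inside the naive range. The log2 difference was 0.29 (SE 0.09, limma adjusted p = 0.0293). The adjusted p was 0.1705 without naive vehicle 4, 0.0542 without cuprizone vehicle 2, 0.0650 without the 3 libraries low in choroid plexus genes and 0.151 after quantile normalization. Hist1h1e, the other measured linker gene, averaged 1.13 ± 0.197 FPKM in naive vehicle (SD, n = 4) and 1.21 ± 0.180 in cuprizone vehicle libraries (SD, n = 8), a log2 difference of 0.07 (95% interval -0.14 to 0.28, limma adjusted p = 0.699).

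The count in this comparison rested on single libraries. It was 1 without naive vehicle 4, and 5 without naive vehicle 1, where the H3 gene Hist2h3c2 also rose (0.56, limma adjusted p = 0.0123) and the H2A gene Hist3h2a fell (-0.18, limma adjusted p = 0.0488). Hist3h2a was also called lower after median ratio scaling (0.0321) and quantile normalization (0.0264), and the H2B gene Hist2h2be without naive vehicle 3 (0.0218). Without the 3 libraries low in choroid plexus genes, Hist1h1c and Hist1h4h made up a count of 2. Among the 46 low members that could be fitted when the limit was dropped, Hist1h4c and Hist1h2bn had adjusted p of 0.0433 and 0.0125 in this comparison, with log2 differences of 0.50 and 0.45. That fit called 6.75% of 31917 genes, a share that 2 of 46 did not reach, and the 2 genes rested on means of 5.38 and 1.44 fragments per library. No low member did in the other 4 comparisons, where limma gave between 1 and 5 of them an unadjusted p under 0.05.

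**Figure D2:**
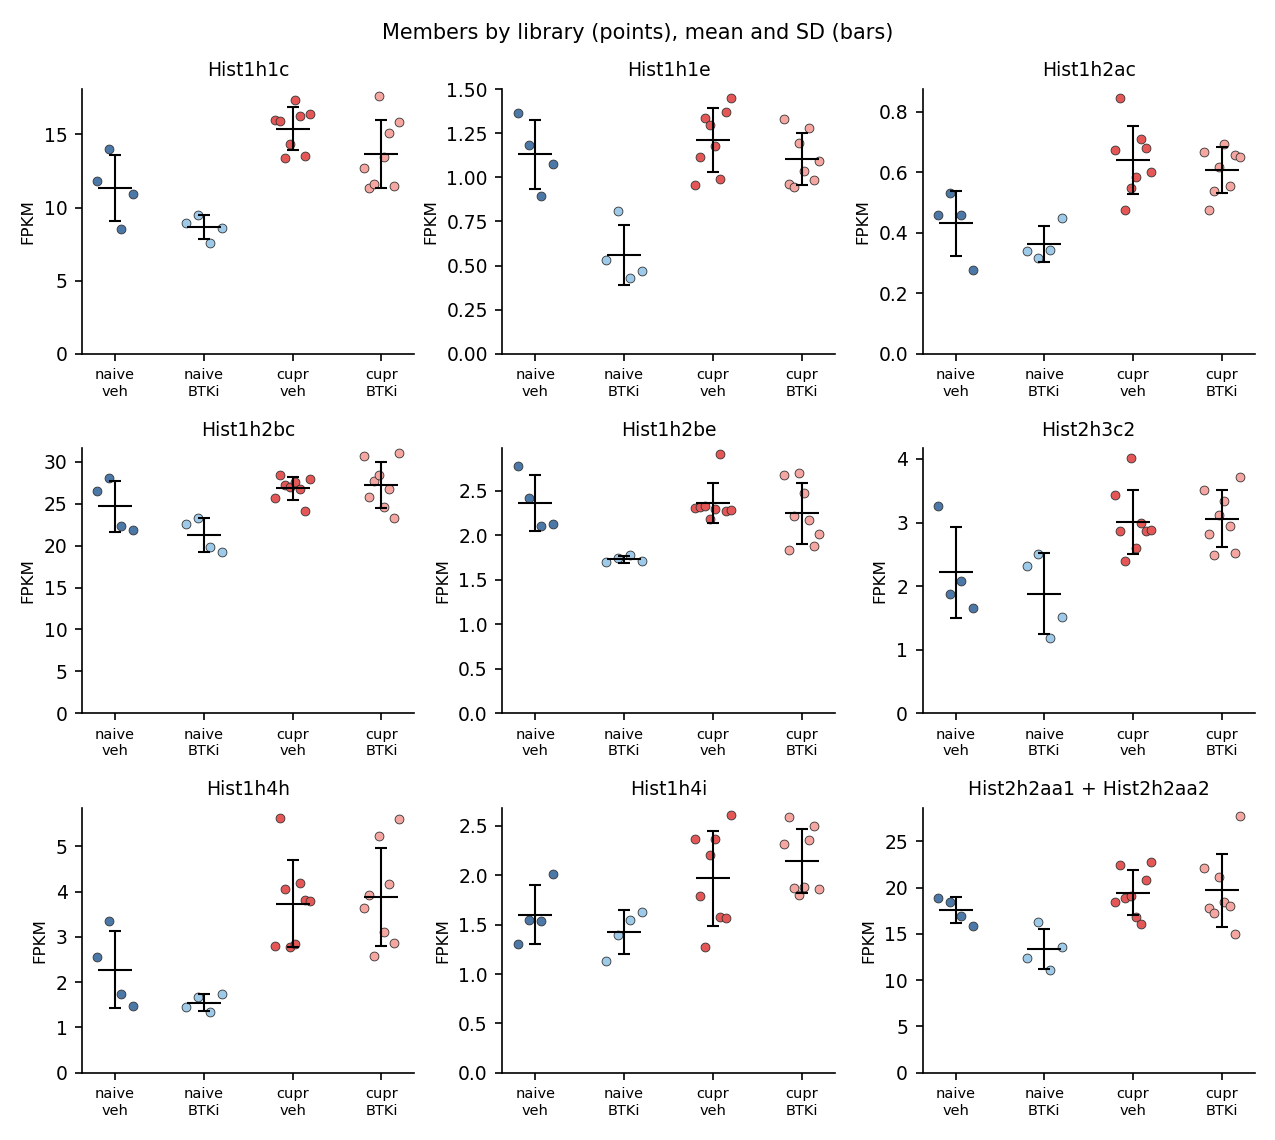
FPKM in each library (points) with the mean and SD (bars) for the 8 members that changed in any comparison and for the sum of Hist2h2aa1 and Hist2h2aa2, by group (vertical axes start at 0). Hist1h1e is lowest in the naive BTKi libraries, at 0.427 to 0.809 FPKM, below every library of the other groups.

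The second comparison asked what cuprizone changed in mice that received the inhibitor. Here 8 of the 16 tested members rose and none fell, and each of the 5 histone classes had at least 1 gene that rose. That was 50% of the tested members, beside 7.87% of all genes that changed and 6.11% that rose. The differences were positive for 15 of the 16, beside 58.03% of all genes. The median log2 difference was 0.42 beside 0.02 over all genes. An unadjusted p under 0.05 was found for 12 members, beside 18.5% of all genes. The 2 groups did not overlap for 6 of the 16, beside 7.17% of all genes. Both the 8 and the 6 include Hist1h1e and Hist1h2be, which overlap on the same strand and share sequence. Without the 3 cuprizone vehicle libraries low in choroid plexus genes, which enter this fit through its shared spread, 10 rose. Both cuprizone comparisons use different libraries, but this one shares the 4 naive BTKi libraries with the test of BTKi in naive mice described below.

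Both linker genes rose. Hist1h1e (ENSMUSG00000051627.3, chr13:23620629-23622558, minus strand) was at 0.529, 0.809, 0.427 and 0.471 FPKM in naive BTKi libraries, and its lowest, median and highest values in cuprizone BTKi libraries were 0.947, 1.06 and 1.33 FPKM. Hist1h1c was at 8.97, 9.47, 7.57 and 8.63 FPKM in naive BTKi libraries against a lowest, median and highest value of 11.3, 13.1 and 17.6 FPKM. The groups did not overlap for either gene. The log2 difference was 0.61 for Hist1h1e (SE 0.10, limma adjusted p = 0.000257) and also 0.61 for Hist1h1c (SE 0.11, limma adjusted p = 0.000598).

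Among the H4 genes Hist1h4h and Hist1h4i rose. Hist1h4h was at 1.44, 1.67, 1.34 and 1.73 FPKM in naive BTKi libraries, and its lowest, median and highest values in cuprizone BTKi libraries were 2.57, 3.78 and 5.59 FPKM, with no overlap. The log2 difference of 1.07 (SE 0.19, limma adjusted p = 0.000353) was the largest of any tested member in this comparison with 0.5 FPKM added; with 0.1 added, Hist1h4k, at 0 in 2 naive BTKi libraries, had 1.66 (limma adjusted p = 0.0244). Hist1h4i (ENSMUSG00000060639.5, chr13:22040636-22041362, minus strand) was at 1.13, 1.39, 1.55 and 1.63 FPKM in naive BTKi libraries and at 1.80, 2.10 and 2.59 FPKM (lowest, median, highest) in cuprizone BTKi libraries. These groups did not overlap either, and the log2 difference was 0.46 (SE 0.13, limma adjusted p = 0.0287). The only tested H3 gene, Hist2h3c2 (ENSMUSG00000081058.5, chr3:96238108-96239127, minus strand), rose from 1.88 ± 0.637 FPKM (SD, n = 4) to 3.06 ± 0.448 (SD, n = 8). Its log2 difference was 0.61 (SE 0.15, limma adjusted p = 0.00883), and the groups overlapped by a narrow margin, 2.51 FPKM at the top of one and 2.50 at the bottom of the other.

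Of the H2A and H2B genes Hist1h2bc, Hist1h2ac and Hist1h2be rose. Hist1h2bc (ENSMUSG00000018102.5, chr13:23684199-23692908, plus strand) was at 22.6, 23.3, 19.8 and 19.3 FPKM in naive BTKi libraries and at 23.3, 27.2 and 31.0 FPKM (lowest, median, highest) in cuprizone BTKi libraries. Only the top naive and the bottom cuprizone library met. The log2 difference was 0.35 (SE 0.07, limma adjusted p = 0.00237). Hist1h2ac rose by 0.36 on the log2 scale (SE 0.09, limma adjusted p = 0.0122), from 0.363 ± 0.0580 (SD, n = 4) to 0.606 ± 0.0762 FPKM (SD, n = 8), a change that the added 0.5 FPKM understates at this level. Hist1h2be (ENSMUSG00000047246.7, chr13:23583670-23621124, minus strand), an H2B gene, rose by 0.29 (SE 0.09, limma adjusted p = 0.0338), from 1.73 ± 0.0358 (SD, n = 4) to 2.24 ± 0.339 FPKM (SD, n = 8). Neither gene's groups overlapped. The pair on chromosome 11 and Hist2h2be did not pass the test: Hist3h2ba averaged 15.0 FPKM in naive BTKi and 15.1 in cuprizone BTKi libraries, Hist3h2a 11.6 and 11.3, and Hist2h2be 2.59 and 2.74.

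Of these 8 calls, 4 (Hist1h1c, Hist1h1e, Hist1h4h and Hist1h2bc) stood under all 33 other settings tried. The other 4 depended on single libraries. Hist2h3c2 had an adjusted p of 0.0869 without naive BTKi 3 and 0.0506 without naive BTKi 4, and Hist1h2ac 0.0521 without naive BTKi 2. Hist1h4i lost the call without any 1 of naive BTKi 1, 2 and 3 and cuprizone BTKi 2 and 7 (adjusted p from 0.0509 to 0.131), and Hist1h2be without any 1 of the 4 naive BTKi libraries and cuprizone BTKi 1, 4 and 5 (0.0609 to 0.0868). After quantile normalization Hist1h2ac, Hist1h4i and Hist1h2be were at 0.138, 0.115 and 0.225. The count itself was 5 without naive BTKi 2 or naive BTKi 3.

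**Figure D3:**
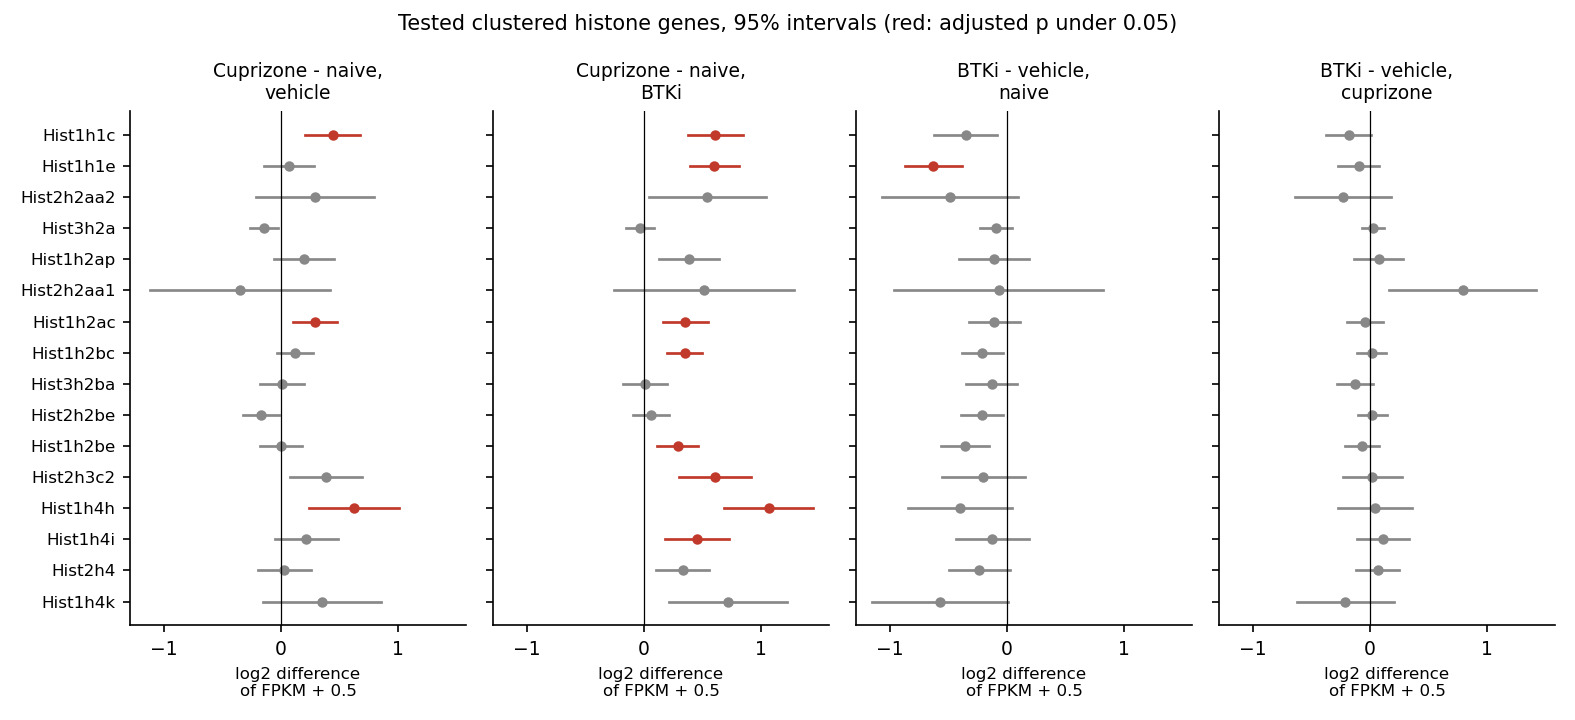
Log2 difference of FPKM + 0.5 with its 95% interval for the 16 tested members in 4 comparisons (horizontal axes, panels); red marks a limma adjusted p under 0.05. Cuprizone against naive has 3 red members under vehicle and 8 under BTKi, all to the right of 0, and BTKi against vehicle has 1 in naive mice, Hist1h1e, to the left.

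The third comparison asked what the inhibitor changed in naive mice. The linker gene Hist1h1e was the 1 tested member of 16 that fell, and none rose. That was 6.25% of tested members, beside 0.217% of all genes that changed and 0.112% that fell. All 16 differences were negative, where 43.83% of all genes had a positive one. The median log2 difference was -0.21 beside -0.02 over all genes. An unadjusted p under 0.05 was found for 5 members, beside 12.6% of all genes. Groups did not overlap for 2 members, Hist1h1e and Hist1h2be, beside 7.36% of all genes. These genes overlap on the same strand and share sequence, so they may not be 2 separate observations. Members share libraries, so 16 differences of 1 sign are not 16 separate observations. Some marker lists leaned the same way in this comparison, with none of their genes called. Mature oligodendrocyte, striatal neuron and choroid plexus markers had 0 of 8 positive each, with median log2 differences of -0.33, -0.48 and -0.44. Disease-associated microglia markers had 1 of 6 positive, with a median of -0.06. Other lists did not lean that way. Microglia markers had 5 of 8 positive, neuron and astrocyte markers 3 of 6 each, endothelium 2 of 4 and red blood cell 3 of 4. The part of these markers in the histone differences was not tested.

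Hist1h1e was at 1.37, 1.18, 0.894 and 1.08 FPKM in naive vehicle libraries, above all 4 naive BTKi libraries, whose values are given above. The log2 difference was -0.63 (SE 0.12, 95% interval -0.87 to -0.38, limma adjusted p = 0.0223). The call rested on single libraries: the adjusted p was 0.0660 without naive vehicle 1, 0.0622 without naive vehicle 2, 0.0571 without naive BTKi 1, 0.124 without naive BTKi 3 and 0.104 without naive BTKi 4. Hist1h1c averaged 11.3 ± 2.27 FPKM in naive vehicle (SD, n = 4) and 8.66 ± 0.807 in naive BTKi libraries (SD, n = 4), a log2 difference of -0.35 (SE 0.13, limma adjusted p = 0.255). Hist1h2be did not overlap between the groups either, with 2.78, 2.42, 2.11 and 2.13 FPKM under vehicle and 1.69, 1.74, 1.77 and 1.70 under BTKi, yet its log2 difference of -0.35 had a limma adjusted p of 0.137. Hist1h4k, the least abundant tested H4 gene, was at 0.567, 0.744, 0.187 and 0.321 FPKM under vehicle and at 0.284 and 0.282 in naive BTKi 1 and 2, and it was listed at 0 in naive BTKi 3 and 4.

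The fourth comparison asked what the inhibitor changed in cuprizone mice. No tested member changed (0 of 16 by limma, 1 with an unadjusted p under 0.05), beside 0.177% of all genes that changed (0.0394% higher and 0.138% lower) and 8.79% with such a p. The median log2 difference was 0.02. Hist1h1c averaged 15.4 ± 1.45 FPKM under vehicle and 13.6 ± 2.32 under BTKi (SD, n = 8 each), a log2 difference of -0.18 with a 95% interval of -0.37 to 0.01. Hist1h1e differed by -0.09 (95% interval -0.27 to 0.08) and Hist1h4h by 0.04 (95% interval -0.27 to 0.36). The lower bound for Hist1h1e lay above its estimate in naive mice, -0.63; the test of that difference itself is given next.

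Whether the inhibitor's effect differed between cuprizone and naive mice was tested directly. The same number is also the difference between the cuprizone effects under BTKi and under vehicle. No member passed (0 of 16 by limma, 4 with an unadjusted p under 0.05), beside 0.125% of all genes that changed (0.00657% with a positive difference and 0.118% with a negative one) and 9.74% with such a p. The largest departure by p was Hist1h1e, at 0.53 on the log2 scale (SE 0.15, 95% interval 0.23 to 0.83, limma adjusted p = 0.215). All 16 differences were positive, beside 49.19% of all genes, with a median of 0.24 beside -0.0027 over all genes. Mature oligodendrocyte, striatal neuron and choroid plexus markers were also positive in 8 of 8 each, with medians of 0.55, 0.62 and 1.09 and none called. Other lists were mixed. Microglia markers had 2 of 8 positive, neuron and disease-associated microglia markers 2 of 6 each and astrocyte markers 4 of 6. Endothelium and red blood cell markers had 3 of 4 each. The part of these markers in the result was not tested. So the larger number of members that rose under BTKi than under vehicle was not shown to be a difference for any single gene. The naive BTKi libraries entered both the third comparison and the second, with the lowest mean of the 4 groups for 14 of the 16 tested members.

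The upstream sequence of the 2 tested linker genes is shown because both rose with cuprizone under BTKi, though under vehicle only Hist1h1c passed and with BTKi in naive mice only Hist1h1e did. RefSeq promoters on GRCm38.p6 were matched for 62 of the 67 members. The 120 bases before each start are printed with 3 motifs in capitals where found on either strand. The motifs are the CCAAT box, the TATA box searched as TATAAA, and the AC box known from H1 promoters, searched as AAACACA.
Hist1h1c, chr13:23738687-23738806, plus strand: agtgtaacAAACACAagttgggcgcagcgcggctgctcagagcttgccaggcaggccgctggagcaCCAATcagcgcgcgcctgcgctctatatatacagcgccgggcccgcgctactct
Hist1h1e, chr13:23622559-23622678, minus strand: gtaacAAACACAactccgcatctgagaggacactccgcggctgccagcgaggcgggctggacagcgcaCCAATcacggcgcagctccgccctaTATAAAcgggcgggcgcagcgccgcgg
Both have AAACACA followed by CCAAT, and the Hist1h1e promoter also has TATAAA. In windows of 300 bases around the start, 5 of 6 H1 genes and 9 of the 62 matched members held AAACACA, beside 7.18% of all 32851 promoters. CCAAT stood in 53 of the 62, beside 37.4% of all promoters, and TATAAA in 35, beside 13.6%. The octamer ATTTGCAT, known from H2B promoters, stood in 6 of 16 H2B genes and 13 of the 62 members, beside 1.74%. A match is a description of the letters and not evidence of a bound site.

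Several members are near copies, and their levels cannot be read singly. The H2A genes Hist2h2aa1 (chr3:96245497-96246082, plus strand) and Hist2h2aa2 (chr3:96239749-96240276, minus strand) share 89.4% and 100% of their 50-base stretches with other genes. Transcripts of Gm20634, another gene identifier, hold all of those stretches, and it was listed at 2.88 to 5.33 FPKM. Whether Gm20634 is a separate locus was not examined. In cuprizone vehicle 1 Hist2h2aa1 and Hist2h2aa2 read 12.8 and 5.69 FPKM, in that order, and in cuprizone vehicle 2 they read 0.803 and 21.7. Over the 8 cuprizone vehicle libraries the coefficient of variation was 67.1% for Hist2h2aa1 and 33.1% for Hist2h2aa2, but 12.5% for their sum. In naive vehicle libraries it was 61.2% and 24.6%, against 7.90% for the sum. The split between the copies thus varied far more than their total in these 2 groups. In naive BTKi libraries the sum varied by 16.4%, no less than Hist2h2aa1 at 16.2%, and in cuprizone BTKi libraries by 20.0% beside 28.5% and 22.9%.

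The sum of the pair was 17.6 ± 1.39 FPKM in naive vehicle and 13.4 ± 2.20 in naive BTKi libraries (SD, n = 4 each). It was 19.4 ± 2.43 in cuprizone vehicle and 19.7 ± 3.94 in cuprizone BTKi libraries (SD, n = 8 each). Fitted as 1 gene, a choice made after seeing the data, the pair rose with cuprizone under BTKi by 0.53 on the log2 scale (SE 0.12, limma adjusted p = 0.00408), where the 2 genes fitted singly had adjusted p of 0.514 and 0.218. It did not pass in the other comparisons, with limma adjusted p of 0.503 for cuprizone under vehicle, 0.230 for BTKi in naive mice and 0.992 for BTKi in cuprizone mice. The H3 gene Hist2h3c1 was listed at 0 throughout while Hist2h3c2 averaged 2.71 FPKM. Both share sequence with Gm20634, Hist2h3c1 over 100% and Hist2h3c2 over 63.5% of its 50-base stretches.

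**Figure D4:**
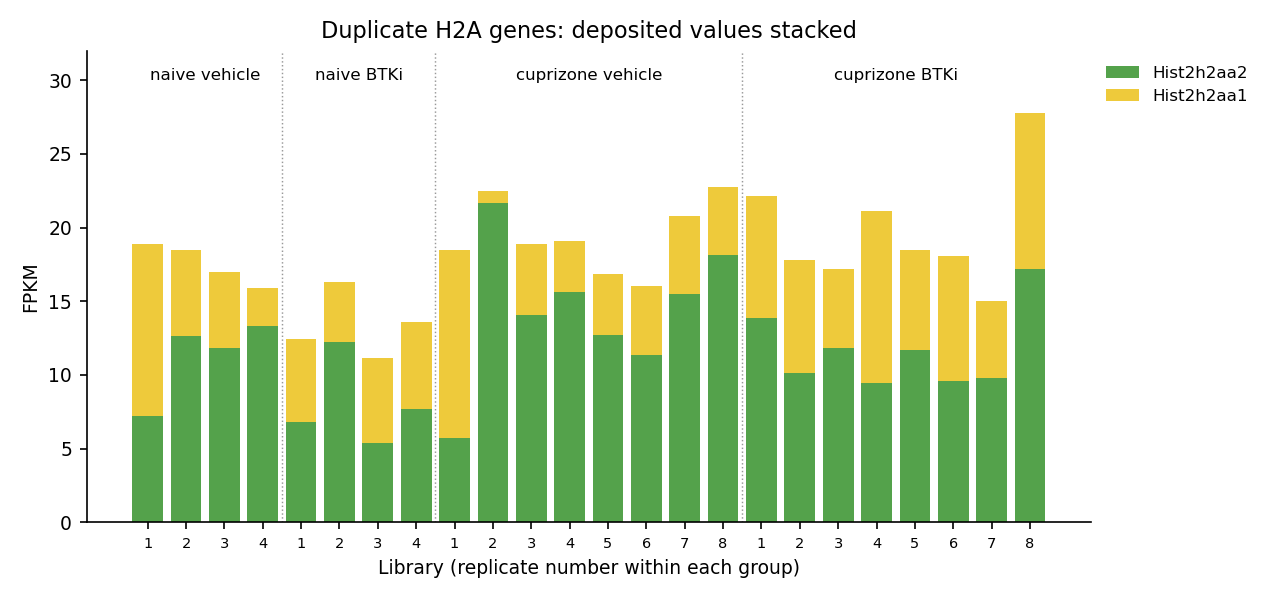
Deposited FPKM of Hist2h2aa2 (green) and Hist2h2aa1 (yellow) stacked for each of the 24 libraries, by group (vertical axis from 0). The share of the 2 colours swings between libraries, from 0.803 FPKM of Hist2h2aa1 in cuprizone vehicle 2 to 12.8 in cuprizone vehicle 1, while the stack heights differ less.

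The number of fragments behind each value was calculated back from its level. Multiplied by length and depth, the level of Hist3h2ba, Hist2h2be and Hist2h4 gave a whole number of fragments in all 24 libraries, with means of 295, 219 and 31.7 fragments. Hist1h1c did so in 3 libraries (mean 615 fragments), Hist1h1e in 4 (61.6), Hist1h4h in 6 (45.4) and Hist1h2bc in 6 (900), near the number chance gives. Among the genes used to read the depth, the more deeply covered ones had whole values in 79.5% to 87.9% of cases, depending on the library. Fragments divided between genes and a length other than that in GENCODE M21 would both give values that are not whole, and which applied was not tested. Hist1h1e and Hist1h2be overlap on the same strand and share 23.8% and 10.1% of their 50-base stretches with each other. Counting all other genes, the shares were 32% and 16.3%. Hist1h4h shares 45.8%, mostly with Hist1h4j, and Hist1h2bc 30.1%, mostly with Hist1h2bg, so their levels are uncertain where the counting could split shared fragments. Hist1h2ap shares 93.1%, Hist1h1c 8.54%, Hist1h4i 28.9% and Hist1h2ac 14.1%. In all, 32 of the 67 members share over 50% of their stretches and 4 share none.

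**Figure D5:**
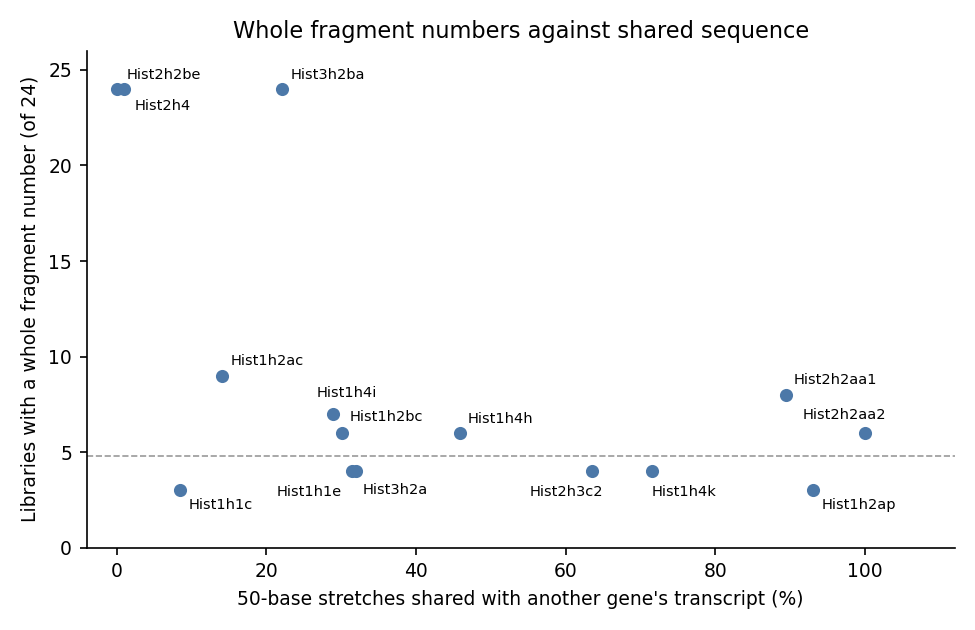
Number of libraries, of 24, in which the back-calculated fragment number was whole within 0.1 (vertical axis), against the percentage of 50-base stretches shared with another gene (horizontal axis), for 15 tested members with 1 annotated transcript; the dashed line is the number chance gives. Hist2h2be, Hist2h4 and Hist3h2ba are whole in all 24 libraries, and Hist1h1c, with 8.54% shared, in 3.

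Lists of genes that work with histones, drawn up with earlier results of these data known, are read against the same background, 15.0% of all genes called with cuprizone under vehicle and 7.87% under BTKi. Of 11 replacement histones, all tested, none changed with cuprizone under vehicle, and 1 rose under BTKi. That gene, H3f3b, which encodes histone H3.3, went from 57.6 to 65.9 FPKM (log2 difference 0.19, limma adjusted p = 0.0122), and the adjusted p was 0.0718 without naive BTKi 1. Of 18 tested genes of histone mRNA processing and decay, 1 rose under vehicle, Tent4b (log2 difference 0.17, limma adjusted p = 0.0416), and none changed in the other comparisons. It lost the call under 13 of 33 other settings, with an adjusted p of up to 0.182 without naive vehicle 1. Of 11 tested histone chaperones, 2 rose under vehicle: Daxx, which deposits H3.3, by 0.23 (limma adjusted p = 0.0138), and Nap1l1, which binds H2A and H2B, by 0.15 (limma adjusted p = 0.0499). Daxx had an adjusted p of 0.0598 without naive vehicle 3 and 0.0978 without naive vehicle 4, and Nap1l1 lost its call under 22 of 33 other settings, both scalings included, with an adjusted p of up to 0.199 without naive vehicle 2.

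Histone genes of the clusters are transcribed mainly in S phase. Of 26 genes of S phase and mitosis 21 were tested, and 3 rose with cuprizone under vehicle, and none changed in the other 4 comparisons. The 3 of 21 are near the background under vehicle, 15.0% of all genes called and 10.2% higher. Cdt1, which licenses replication origins, went from 0.768 to 1.11 FPKM (log2 difference 0.34, limma adjusted p = 0.00860). Mcm3, a helicase subunit, went from 0.869 to 1.28 FPKM (0.37, limma adjusted p = 0.0114) and Gins2, another replication factor, from 0.304 to 0.748 FPKM (0.60, limma adjusted p = 0.0311). Mcm3 had an adjusted p of 0.0542 without naive vehicle 4, and Gins2 lost its call under 9 of 32 settings, with 0.0927 without naive vehicle 3 and up to 0.122 after quantile normalization. Under BTKi the S phase list had a median log2 difference of 0.11 with 19 of 21 positive, beside a median of 0.15 with 14 of 21 positive under vehicle. The part of dividing cells in the histone levels was not tested.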

How the data were processed

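The values analysed were the deposited FPKM of 54446 genes in 24 libraries, already normalized by the authors. Per the labels' protocols, RNA was extracted with a Qiagen RNeasy Micro kit and libraries made with a TruSeq stranded mRNA kit. The labels name no aligner, counter, genome build or annotation. Every sample column was mapped to its library by the label. A symbol was found for 54409 genes, ignoring the version of the identifier where needed. GENCODE M21 held 53229 of the 54446 identifiers with the same version, and the members were taken from these.

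Genes with a mean of at least 0.5 FPKM (15216) were fitted on log2(FPKM + 0.5) with limma 3.58.1 (R 4.3.3, eBayes with trend, 4 groups in 1 model, no block), and p-values were adjusted by Benjamini-Hochberg over all of them, with a threshold of 0.05. Fold changes on this scale understate those of low genes. Depth came from the spacing of low values of 6872 genes with a single transcript of 1500 to 8000 bases. It was 2.65e+07 to 3.10e+07 fragments per library, and no count test was run. The code was tested on simulated data.

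Members changed in any comparison, the 10 highest, the highest of each class and those nearest the limit were named. The members and lists were chosen with earlier results of these data known. Alternatives were the pseudocount (0.1, 1), the limit (1, none), 2 scalings, a replicate block and leaving out each library.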

Additional observations from a re-analysis of the deposited data

Results flagged for a closer look

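In 5 of 64 groups of tested members' values, the highest or lowest library stood farther from the rest than the 95% limit of Dixon's test for a single outlying value. Chance alone gives about 1 in 20 such groups. Hist2h2aa1, an H2A gene with a near copy, was at 4.05 FPKM in naive BTKi 2, where the other 3 naive BTKi libraries were at 5.59 to 5.90. The same gene was at 12.8 FPKM in cuprizone vehicle 1, with the other 7 libraries of that group at 0.803 to 5.33. Hist2h2be, an H2B gene whose transcript shares no 50-base stretch with another gene, was at 2.13 FPKM in cuprizone vehicle 2 (others 2.56 to 2.90) and at 2.26 in cuprizone BTKi 2 (others 2.66 to 2.93). Hist1h2be, another H2B gene, was at 2.91 FPKM in cuprizone vehicle 6, with the others at 2.18 to 2.32.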

How the results depend on the processing

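Across 33 alternatives, of which 24 left out 1 library each, no difference called in the tested members changed direction, and 4 of 12 calls stood under all of them. Leaving out 1 library gave between 1 and 5 members called for cuprizone under vehicle, 5 to 9 for cuprizone under BTKi, 0 to 1 for BTKi in naive mice, and 0 to 0 for BTKi in cuprizone mice and for the difference of the BTKi effects. Quantile normalization left 5 called for cuprizone under BTKi. Of 68 differences not called, 7 were called under some setting. For Hist2h2aa2 with cuprizone under BTKi that setting was only the sum with Hist2h2aa1, where the value is that of the pair. Leaving out the libraries low in choroid plexus genes and summing the near copies were chosen after seeing the data.

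With the replicate number as a block, 0 members were called for BTKi in naive mice (Hist1h1e, adjusted p = 0.0568), and Hist1h2ac lost its call under vehicle (0.133) and under BTKi (0.0881). Under BTKi Hist1h4i (0.117) and Hist1h2be (0.0694) lost theirs too, and Hist1h2ap gained one (0.00633). Deviations of same-numbered libraries correlated with r from -0.274 to 0.324. Some libraries, but not all, correlated best with their own number. These mixed values do not decide whether the numbers pair the samples. Depth limits the tested members with few fragments. Hist1h4k rested on 0 to 13.6 fragments per library, Hist2h4 on 18.0 to 45.0 and Hist1h2ac on 20.9 to 64.8. Hist1h4i rested on 24.6 to 58.7 and Hist1h4h on 19.0 to 81.6.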
